A study of Mus musculus with 8 samples.

Results

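The 10 genes described here encode the TEAD transcription factors (Tead1, Tead2, Tead3 and Tead4), their coactivators YAP (Yap1) and TAZ (Wwtr1), and 4 genes that act on or answer to YAP/TAZ (Ajuba, Amotl2, Lats2 and Ccn1). They were taken by name, each read by 1 probe set that the platform's annotation assigns to that gene alone, out of 19356 genes measured. All 10 were measured, and no filter on low levels was applied. Of the 10, Tead1 alone had several probe sets, and its brighter one on average was used.

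Gene expression was profiled on arrays in urogenital ridges, of which the caudal area was dissected at E10.75 from mouse embryos: from Sox11-/- embryos (4 replicates) and from wild type embryos (4 replicates). The mice had a mixed genetic background and both groups were untreated. The kind of Sox11 allele, and the number of embryos behind a replicate, are not stated in the labels. Values are log2 signals after RMA, so each unit is a doubling, and levels of different probe sets cannot be set against each other.

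TEAD proteins bind DNA but activate genes only weakly without a partner. YAP and TAZ enter the nucleus when the Hippo kinases, among them LATS2, leave them unphosphorylated, and then bind TEAD factors to switch on genes such as Ccn1 and Amotl2. In the mouse, SOX11 and its relatives SOX4 and SOX12 have been reported to activate Tead2 in mesenchymal and neural progenitors, and the developing kidney needs YAP in its progenitor cells. The comparison asked whether loss of Sox11 went with a lower level of Tead2, of its paralogs, or of the genes that TEAD and YAP/TAZ control.

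The promoters of 4 members are shown because these 4 had the lowest p-values of the 10, and because Tead2 is the reported SOX target among them. Each is the 250 bases before the start of the gene in RefSeq's annotation of GRCm38.p6, read 5′ to 3′ on the gene's own strand. Capitals mark the core letters that TEAD proteins bind, GGAATG, which read CATTCC on the other strand. They also mark letters that SOX proteins bind, in the form AACAAAG, which reads CTTTGTT on the other strand, and in the form AACAATG, which reads CATTGTT there. No capitals of the TEAD and SOX letters overlap in the windows shown. The 4 windows are chr7:45215542-45215791 on the plus strand for Tead2, chr14:54577662-54577911 on the minus strand for Ajuba, chr3:145649986-145650235 on the minus strand for Ccn1 and chr9:102717554-102717803 on the plus strand for Amotl2.
Tead2: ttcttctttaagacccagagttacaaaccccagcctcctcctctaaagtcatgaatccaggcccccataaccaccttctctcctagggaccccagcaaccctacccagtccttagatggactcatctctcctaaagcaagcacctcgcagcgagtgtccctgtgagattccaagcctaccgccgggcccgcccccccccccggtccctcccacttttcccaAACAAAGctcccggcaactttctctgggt
Ajuba: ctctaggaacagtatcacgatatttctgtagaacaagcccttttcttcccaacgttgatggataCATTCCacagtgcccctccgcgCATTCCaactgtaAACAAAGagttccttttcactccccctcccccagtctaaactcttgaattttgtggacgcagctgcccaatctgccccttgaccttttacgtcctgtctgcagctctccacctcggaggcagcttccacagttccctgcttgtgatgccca
Ccn1: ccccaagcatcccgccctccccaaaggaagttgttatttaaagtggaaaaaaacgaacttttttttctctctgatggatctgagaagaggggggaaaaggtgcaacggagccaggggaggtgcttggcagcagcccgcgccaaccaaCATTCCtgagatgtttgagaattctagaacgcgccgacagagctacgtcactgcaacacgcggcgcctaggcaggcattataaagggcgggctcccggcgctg
Amotl2: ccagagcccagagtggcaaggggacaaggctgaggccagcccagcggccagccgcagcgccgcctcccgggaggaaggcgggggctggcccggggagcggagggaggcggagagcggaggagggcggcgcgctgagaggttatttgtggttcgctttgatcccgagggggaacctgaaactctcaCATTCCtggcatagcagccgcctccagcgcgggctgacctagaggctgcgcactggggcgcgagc

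The Tead2 window held AACAAAG 22 bases before the start and no TEAD letters. The Ajuba window held CATTCC at both 180 and 158 bases before the start, and AACAAAG at 144 bases. Ccn1 and Amotl2 each held 1 CATTCC, at 97 and 59 bases before the start. The 8 members with a promoter in the table had 12 windows, several of them to a gene and partly overlapping for Wwtr1 and Tead3. Of the 12 windows, 8 held the TEAD letters (also those of Yap1, Wwtr1 and Tead3) and 2 the SOX letters (Tead2 and Ajuba). Over all 32851 promoter windows, 12.6% held the TEAD letters and 8.12% the SOX letters. A match describes the letters in these windows and is no measurement of binding.

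The arrays were alike, with correlations across genes of 0.987 to 0.995. Sox11 itself fell, with log2 signals of 9.24, 9.13, 8.93 and 9.12 in Sox11-/- ridges, against 11.76, 11.81, 11.72 and 11.86 in wild type ridges (change -2.69, SE 0.08, limma adjusted p = 6.36e-08). Sox4 and Sox12, which can act in place of Sox11, were at 0.20 (95% interval -0.03 to 0.43) and 0.02 (-0.14 to 0.17) and did not pass. Of the 11 markers of the ridge and nephric lineage, none lay in the lowest 25% of levels, and Osr1 and Wt1 averaged 11.82 and 10.68 in Sox11-/- ridges, and 11.70 and 10.88 in wild type ridges. The mean of these 11 ran from 9.95 to 9.98 in Sox11-/- ridges, and from 9.88 to 10.01 in wild type ridges. Of them 1 rose and 10 did not pass, where 0.362% of all genes rose. Ret, the receptor of GDNF in the nephric duct, rose by 0.41 (limma adjusted p = 0.0220), a call lost without moderation of variances (0.0692) and without Sox11-/- replicate 1, 2 or 3 or wild type replicate 2 or 3 (up to 0.0764). Lhx1 and Gata3 were at 0.42 and 0.25 and Eya1 at -0.28, all with no overlap (limma adjusted p = 0.0577, 0.0845 and 0.0609). The part of these cells in the members' values was not tested. Wild type replicate 4 stood apart on the second principal component, at -21.8 where the other arrays lay between -5.35 and 14.3.

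Tead2 was lower in every Sox11-/- ridge than in every wild type ridge, but it did not pass the test over all genes. Its log2 signal was 11.61, 11.83, 11.78 and 11.68 in Sox11-/- ridges, against 11.96, 12.02, 12.02 and 12.01 in wild type ridges. The groups were parted by 0.13, and the SD was 0.10 (n = 4) in Sox11-/- ridges, and 0.03 (n = 4) in wild type ridges. The change was -0.28 (SE 0.07, 95% interval -0.42 to -0.13), which is 17.4% lower, with a limma adjusted p of 0.0804. Tead2 stood at place 467 of all genes by p-value. In a dissected tissue, fewer cells that express Tead2 and less Tead2 RNA per cell cannot be told apart.

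The limma adjusted p of Tead2 was 0.0258 when the moderation of variances allowed for a trend and for outlying genes, and 0.0409 when genes below the median level were left out. Of 11 alternatives on all arrays these 2 alone passed, and the adjusted p reached 0.146 with median centring. Without each array in turn it lay between 0.0766 and 0.206, and the change between -0.31 and -0.24.

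The paralogs of Tead2, which bind the same DNA letters, lay closer to their wild type levels. Tead1 had log2 signals of 11.01, 10.99, 11.20 and 11.21 in Sox11-/- ridges, against 11.05, 11.20, 11.12 and 11.26 in wild type ridges. The groups overlapped, with replicates 3 and 4 of the Sox11-/- ridges among the higher values, and the change was -0.06 (95% interval -0.24 to 0.12, limma adjusted p = 0.743). A second probe set of Tead1 gave -0.10 (SE 0.08, limma adjusted p = 0.539 over all probe sets).

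Tead3 had log2 signals of 9.59, 9.60, 9.79 and 9.73 in Sox11-/- ridges, against 9.78, 9.85, 9.85 and 9.68 in wild type ridges. Sox11-/- replicates 3 and 4 lay within the wild type range, above wild type replicate 4, and the change was -0.11 (95% interval -0.27 to 0.05, limma adjusted p = 0.463). Tead4, the paralog best known from the first cell lineage decision of the mouse embryo, had log2 signals of 7.25, 7.33, 7.36 and 7.38 in Sox11-/- ridges, against 7.42, 7.36, 7.46 and 7.36 in wild type ridges. Its groups overlapped by 0.02, with a change of -0.07 (95% interval -0.20 to 0.07, limma adjusted p = 0.613). A fall of Tead4 or Tead1 by more than 0.20 or 0.24 on the log2 scale thus lay outside these intervals.

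**Figure D1:**
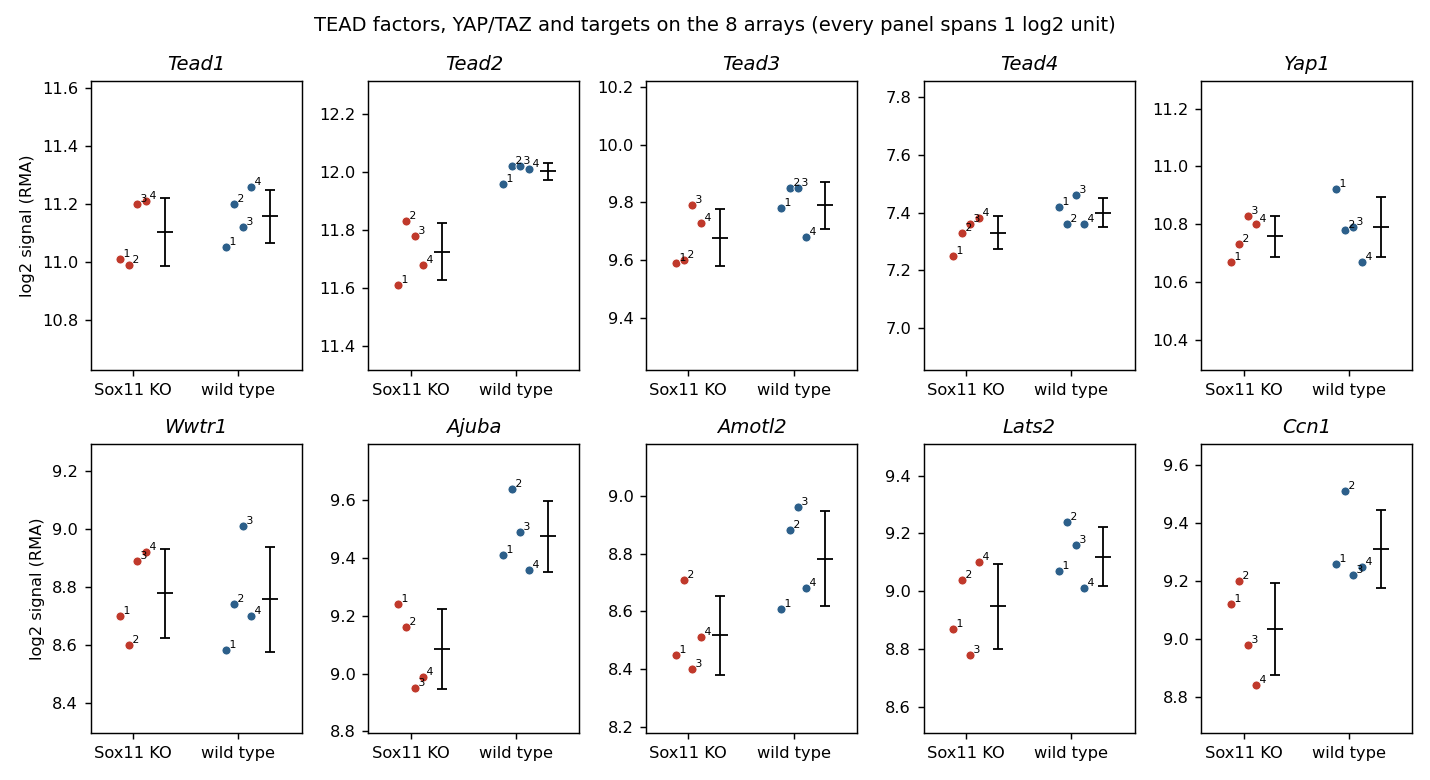
Log2 signal (RMA) of the 10 genes on each array, Sox11 knockout (red) left of wild type (blue). Numbers are replicates, bars show the mean ± SD of 4 arrays, and every panel spans 1 log2 unit. Tead2, Ajuba and Ccn1 are the panels in which all knockout arrays lie below all wild type arrays.

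Whether Tead2 differed in its change from its paralogs was tested directly, on the log2 difference between Tead2 and each paralog on the same array. Relative to Tead4, Tead2 was lower in all 4 Sox11-/- ridges (4.36, 4.51, 4.42 and 4.31) than in all 4 wild type ridges (4.54, 4.66, 4.56 and 4.65). That difference of -0.21 gave an exact two-sided permutation p of 0.0286, the smallest that 4 against 4 arrays allow, and 0.0857 after adjustment over the 3 comparisons.

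Relative to Tead1, the values were 0.61, 0.84, 0.58 and 0.47 in Sox11-/- ridges, against 0.91, 0.81, 0.90 and 0.75 in wild type ridges. Relative to Tead3 they were 2.02, 2.23, 2.0 and 1.95 in Sox11-/- ridges, against 2.18, 2.16, 2.17 and 2.33 in wild type ridges. Sox11-/- replicate 2 lay among the wild type ridges in both. The differences were -0.22 and -0.16 (exact permutation p = 0.0857 and 0.114, both 0.114 after adjustment). Tead2 was not shown to have changed by another amount than any of its 3 paralogs. For Tead4 the unadjusted p was already the smallest that 4 arrays a group allow. Its adjusted p could have passed only if another of the 3 comparisons had reached that p too, and none did. The adjusted test thus does not decide whether the changes of Tead2 and Tead4 differed.

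**Figure D2:**
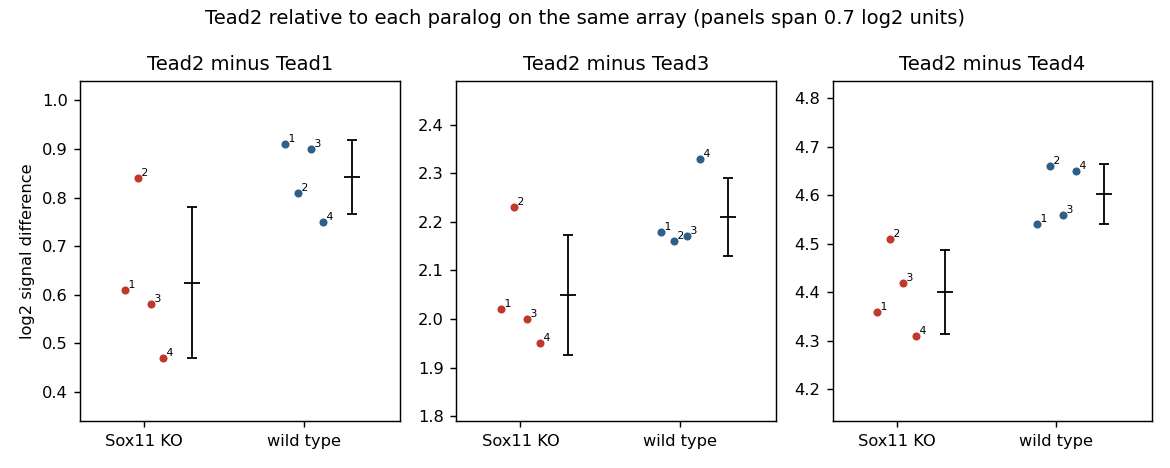
Log2 signal of Tead2 minus that of Tead1, Tead3 or Tead4 on the same array, Sox11 knockout (red) left of wild type (blue). Numbers are replicates, bars show the mean ± SD of 4 arrays, and panels span 0.7 log2 units. The groups are separate only for Tead2 minus Tead4, and knockout replicate 2 lies with the wild type arrays in the other panels.

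The coactivators did not pass the test. Yap1 had log2 signals of 10.67, 10.73, 10.83 and 10.80 in Sox11-/- ridges, against 10.92, 10.78, 10.79 and 10.67 in wild type ridges. The lowest and the highest wild type ridge enclosed the Sox11-/- ridges but for replicate 1, which equalled the lowest at 2 decimals, and the change was -0.03 (95% interval -0.19 to 0.13, limma adjusted p = 0.845). Wwtr1 had log2 signals of 8.70, 8.60, 8.89 and 8.92 in Sox11-/- ridges, against 8.58, 8.74, 9.01 and 8.70 in wild type ridges. Here all Sox11-/- ridges lay within the wild type range (change 0.02, 95% interval -0.21 to 0.25, limma adjusted p = 0.938). A drop of more than 0.19 for Yap1 or of more than 0.21 for Wwtr1 lay outside these intervals.

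The sign of both coactivators was not stable. Yap1 was at 0.001 after a further quantile normalization and at 0.0082 without wild type replicate 1, and Wwtr1 was between -0.04 and -0.02 without Sox11-/- replicate 3, Sox11-/- replicate 4 or wild type replicate 1.

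The 4 genes that act on or answer to YAP/TAZ all lay below 0, and none passed the test over all genes. Ajuba, a LIM domain protein that restrains the LATS kinases at cell junctions, had the largest change of the 10. Its log2 signal was 9.24, 9.16, 8.95 and 8.99 in Sox11-/- ridges, against 9.41, 9.64, 9.49 and 9.36 in wild type ridges. All Sox11-/- ridges lay below all wild type ridges, with a gap of 0.11. The change was -0.39 (SE 0.09, 95% interval -0.59 to -0.19), which is 23.6% lower, and the limma adjusted p was 0.0680. It was 0.0426 with a trended and robust moderation, 0.0467 with array weights and 0.0407 over the genes of higher than median level. Of 11 alternatives on all arrays these 3 alone passed, and the adjusted p reached 0.149 without moderation. Without each array in turn it lay between 0.0692 and 0.184.

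Ccn1, a secreted matrix protein that YAP/TAZ induce directly, had log2 signals of 9.12, 9.20, 8.98 and 8.84 in Sox11-/- ridges, against 9.26, 9.51, 9.22 and 9.25 in wild type ridges. The groups did not overlap, but the gap was only 0.02, and wild type replicate 2 lay well above the others. The change was -0.28 (95% interval -0.49 to -0.06, limma adjusted p = 0.193), and -0.21 without wild type replicate 2 or without Sox11-/- replicate 4.

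Amotl2, an angiomotin that YAP induces and that holds YAP in the cytoplasm, had log2 signals of 8.45, 8.71, 8.40 and 8.51 in Sox11-/- ridges, against 8.61, 8.88, 8.96 and 8.68 in wild type ridges. Sox11-/- replicate 2 lay above wild type replicates 1 and 4 (change -0.27, 95% interval -0.49 to -0.05, limma adjusted p = 0.211). Lats2, the kinase that inactivates YAP and is itself a YAP target, had 8.87, 9.04, 8.78 and 9.10 in Sox11-/- ridges, against 9.07, 9.24, 9.16 and 9.01 in wild type ridges. The groups overlapped, and the change was -0.17 (95% interval -0.36 to 0.02, limma adjusted p = 0.349).

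**Figure D3:**
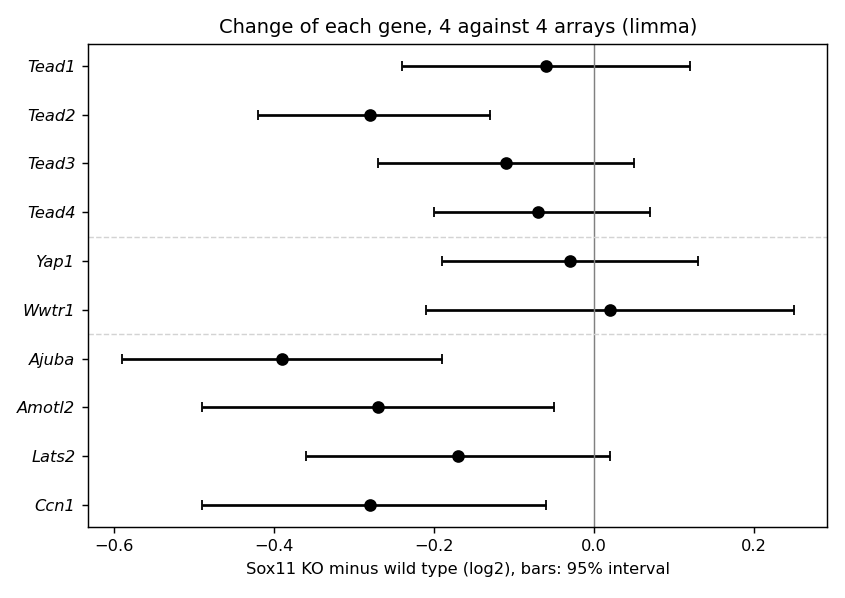
Change of each gene (Sox11 knockout minus wild type, a log2 difference), with its 95% interval from limma (4 against 4 arrays). Dashed lines part TEAD factors, coactivators and the genes that act on or answer to YAP/TAZ. The intervals of Tead2, Ajuba, Amotl2 and Ccn1 exclude 0 before adjustment over all genes.

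Over the 10 members limma called 0 at an adjusted p under 0.05, where it called 1.44% of all genes (1.08% lower and 0.362% higher). At an unadjusted p under 0.05, 4 of the 10 were lower (Tead2, Ajuba, Ccn1 and Amotl2) and 0 higher, where 9.38% of all genes were lower and 7.29% higher. The arrays of 3 members did not overlap, all lower in Sox11-/- ridges, where this held for 6.47% of all genes (and 4.04% were separate and higher). The median change of the members was -0.14 and 9 lay below 0, while all genes had a median of -0.0005 with 50.1% below 0. The members were chosen with earlier results of these data known, which by itself can set such counts apart from those of all genes. These counts are thus a description and no test. With array weights the count of members called was 1 and lower, and with genes above the median level or a trended and robust moderation it was 2 and lower. Those settings also called more genes: 365 of all genes with array weights and 357 with a trended and robust moderation, against 279. The level filter called 349, but out of fewer genes, so that count is not on the same scale, and it left out Tead4.

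The rest of the pathway was described from lists of known components. In the Hippo kinase core 0 of 13 measured genes passed, with a median change of -0.05 and changes from -0.18 to 0.05. Map4k4, a kinase that can phosphorylate the LATS kinases, had the lowest p of these (-0.18, limma adjusted p = 0.266). Stk4, the MST1 kinase, and Frmd6, a FERM domain protein that acts upstream of it, were at -0.15 and -0.12. At an unadjusted p under 0.05, 1 of 13 was lower and 0 higher, where 9.38% of all genes were lower and 7.29% higher.

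Of the junction and polarity proteins that regulate YAP/TAZ, 1 of 17 measured genes fell and 0 rose, where 1.08% of all genes fell and 0.362% rose. The one that fell was Llgl1, which encodes a basolateral polarity protein of the Scribble group. Its log2 signal was 9.32, 9.28, 9.35 and 9.14 in Sox11-/- ridges, against 9.67, 9.83, 9.76 and 9.63 in wild type ridges. The groups were 0.28 apart, and the change was -0.45 (SE 0.07, 95% interval -0.61 to -0.29), 1.37-fold lower (limma adjusted p = 0.0174). Llgl1 missed the threshold without wild type replicate 2 or Sox11-/- replicate 4 (limma adjusted p at most 0.0608) and without moderation of variances (0.0699).

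Further genes of that list, picked for mention once their values were known, include relatives of members. Limd1, a LIM domain paralog of Ajuba, had log2 signals of 8.95, 8.90, 9.08 and 8.99 in Sox11-/- ridges, against 9.18, 9.30, 9.30 and 9.17 in wild type ridges. Those groups did not overlap (change -0.26, SE 0.07, limma adjusted p = 0.0936). Wtip, the third LIM domain paralog, was at 0.00 (95% interval -0.16 to 0.17), and the angiomotin paralogs of Amotl2, Amot and Amotl1, were at 0.13 and -0.12. Scrib, which works with Llgl1, was at -0.21 (limma adjusted p = 0.151). The protocadherins that act at the top of the pathway, Fat1, Fat4 and Dchs1, were at 0.17, 0.10 and -0.15 (limma adjusted p = 0.192, 0.440 and 0.297). For Fat1 all Sox11-/- ridges lay above all wild type ridges, and for Scrib all lay below. Fat4 and Dchs1 overlapped.

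Of 4 Vgll genes, whose products compete with YAP/TAZ for TEAD, 0 passed. Vgll4, known as a repressor of TEAD activity, had log2 signals of 10.99, 11.01, 11.24 and 11.18 in Sox11-/- ridges, against 11.29, 11.23, 11.33 and 11.41 in wild type ridges. The groups overlapped by 0.01 (change -0.21, 95% interval -0.38 to -0.04, limma adjusted p = 0.209). Vgll2 and Vgll1 were at 0.17 and 0.12.

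Other genes reported as YAP/TAZ targets, many of them in human cells, lay on both sides of 0. Of 19 measured, 0 passed, 9 lay below 0 and 10 above 0, and the median change was 0.01. At an unadjusted p under 0.05, 4 were lower (Dock5, Fjx1, Gadd45a and Nuak2) and 3 higher (Igfbp3, Myof and F3). Over all genes 9.38% were lower and 7.29% higher at that threshold. Ccn2, the closest relative of Ccn1 and like it a direct target, had log2 signals of 8.10, 8.38, 8.25 and 8.07 in Sox11-/- ridges, against 8.17, 8.52, 8.02 and 8.26 in wild type ridges. It overlapped widely and its change was -0.04 (95% interval -0.29 to 0.20, limma adjusted p = 0.872), which was 0.0035 after a further quantile normalization and 0.05 without wild type replicate 2.

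Ankrd1, another widely used target, had a signal in the lowest 25% of genes and a change of -0.16 (95% interval -0.47 to 0.14). The targets with the lowest p-values went both ways. Myof, a membrane repair protein, had 8.99, 9.13, 8.96 and 9.09 in Sox11-/- ridges, against 8.71, 8.89, 8.76 and 8.56 in wild type ridges, and all Sox11-/- ridges lay higher (0.31, limma adjusted p = 0.0983). Dock5, a Rac activator, had 9.18, 8.97, 9.38 and 9.02 in Sox11-/- ridges, against 9.42, 9.44, 9.50 and 9.63 in wild type ridges, and all Sox11-/- ridges lay lower (-0.36, limma adjusted p = 0.0993). Fjx1, a Golgi protein related to the fly kinase Four-jointed, was at -0.27 with no overlap (limma adjusted p = 0.106).

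**Figure D4:**
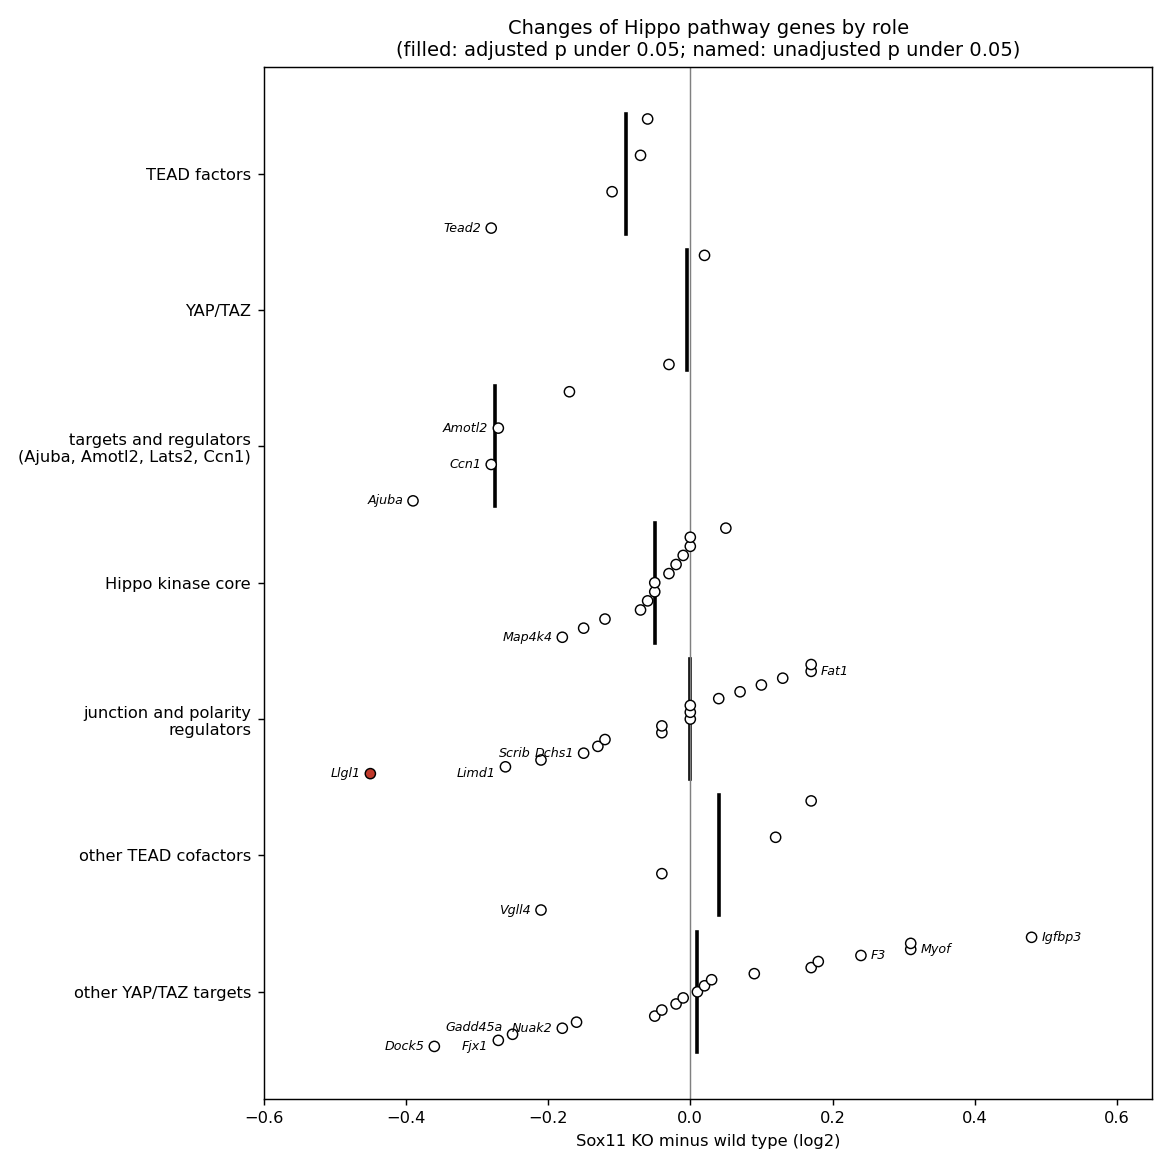
Changes (Sox11 knockout minus wild type, log2) of genes of the Hippo pathway by role, 1 point per gene, with a vertical bar at the median of each group. Filled points passed limma's adjusted p of 0.05 over all genes, which was Llgl1 alone, and names mark genes with an unadjusted p under 0.05. Ajuba, Amotl2, Ccn1 and Lats2 lie left of 0, while the other YAP/TAZ targets lie on both sides.

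Markers of further cell types in the dissected piece were read on the same arrays, and of these Meox2, Uncx and Dcx alone passed the test. Over all genes 1.08% were called lower and 0.362% higher. All 7 duct epithelium markers lay above 0 (0 passed), and their mean log2 signal per array ran from 9.51 to 9.70 in Sox11-/- ridges, and from 9.14 to 9.51 in wild type ridges. Of 7 somite markers Meox2 and Uncx fell (-0.50 and -0.88, limma adjusted p = 0.0117 and 0.0148). Meox1 was at -0.94 and did not pass (limma adjusted p = 0.0517), while Pax1 and Pax9 lay above 0 (0.12 and 0.08). The list's median change was only -0.08. Its mean ran from 7.86 to 8.14 in Sox11-/- ridges, and from 8.24 to 8.47 in wild type ridges. Of 7 neuronal markers 6 lay below 0, and Isl1 lay above (0.26). Isl1 was highest in Sox11-/- replicate 2 (11.03) and wild type replicate 1 (10.84), and at most 10.4 on the other arrays. Dcx fell (-0.93, limma adjusted p = 0.0384), with list means of 7.65 to 7.78 in Sox11-/- ridges, and of 7.83 to 8.14 in wild type ridges.

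The Dcx call was lost without each array other than Sox11-/- replicate 3 (limma adjusted p up to 0.113), and that of Uncx without Sox11-/- replicate 1 (0.0505). Dcx also lost it with median centring (0.0518), a further quantile normalization (0.054), no moderation (0.155) and the Y-linked covariate (0.0508). Without moderation Uncx (0.109) and Meox2 (0.0646) lost theirs too. All 8 measured erythroid markers lay below 0 and 0 passed, with means of 7.87 to 8.16 in Sox11-/- ridges, and of 7.96 to 8.56 in wild type ridges. Of 7 muscle markers 6 lay above 0 and 0 passed (7.60 to 7.95 in Sox11-/- ridges, 7.45 to 7.65 in wild type ridges). Of 7 endothelial markers 6 lay above 0 and 0 passed, and 2 of 3 measured neural crest markers lay below 0 with 0 passing. Of 5 hindgut markers 0 passed, and their mean ran from 6.53 to 7.20 in Sox11-/- ridges, and from 6.39 to 7.15 in wild type ridges. Among them Shh was at 8.58 in Sox11-/- replicate 2 and 8.50 in wild type replicate 1, where the other arrays lay between 6.34 and 6.99. Foxa1 was likewise at 7.91 and 7.66 on those arrays and at most 6.90 on the others, and Cdx2 lay in the lowest 25% of genes. Sox11-/- replicate 2 is also the array that lay among the wild type ridges in Tead2 minus Tead1 and minus Tead3. Wild type replicate 1 was at 0.91 and 2.18 in these, where the other wild type ridges ran from 0.75 to 0.90 and from 2.16 to 2.33. A link between the hindgut signal and these differences was not tested. Arrays list no marker at 0, and the part of these cells in the values of Tead2, Ajuba, Ccn1 and Amotl2 was not tested.

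The genes most like Tead2 over the 8 arrays were found by the root mean square difference between log2 signals after each gene's own mean was subtracted. The 5 nearest were Zbtb17 (0.039), Rnf180 (0.041), Zfp334 (0.042), Rtca (0.043) and Slc38a1 (0.043), against a median of 0.194 over all genes. Zbtb17 encodes the zinc finger factor MIZ1, and had log2 signals of 8.55, 8.66, 8.61 and 8.54 in Sox11-/- ridges, against 8.87, 8.91, 8.88 and 8.83 in wild type ridges. Its change equalled that of Tead2 at 2 decimals (-0.28, limma adjusted p = 0.0517). The 5 genes were chosen by likeness to Tead2 on the same arrays, so lower signals and changes near that of Tead2 follow from the choice. Zfp334, a zinc finger gene, passed the test (-0.34, limma adjusted p = 0.0368), but not without each array other than Sox11-/- replicate 2 (up to 0.108). It also missed the threshold under 5 of 11 alternatives on all arrays (limma adjusted p up to 0.0813). Rnf180, a ubiquitin ligase, Rtca, an RNA cyclase, and Slc38a1, an amino acid transporter, were at -0.26, -0.24 and -0.28 and did not pass. Of the 11 alternatives on all arrays, Slc38a1 passed under 6, Zbtb17 under 4, Rnf180 under 1 and Rtca under 0. None of them passed when an array was left out. The nearest member was Amotl2, at place 1699 of 19355, and Tead4, Tead3 and Ccn1 stood at 2223, 2236 and 2519. On this measure a gene that did not vary at all would be at 0.151, the SD of Tead2 over the 8 arrays. A place can thus reflect a small spread and not a shared pattern. Tead4 and Tead3 were both at 0.123, while Ajuba, with a change of -0.39 and no overlap, was at 0.150 (place 4808).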

How the data were processed

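Arrays were hybridised with RNA of the caudal urogenital ridge, depleted of ribosomal RNA, amplified and biotin-labelled, per the labels' protocols. The deposited values are log2 signals made by the authors with RMA, which corrects background, quantile-normalizes arrays and sums up probes, per the submitters' processing notes, which also name Partek. The labels state no versions or settings. The values themselves (4.30 to 14.62) showed a log2 scale.

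Of 27478 probe sets, 21103 had 1 gene symbol, 1531 several and 4844 none in the annotation used here. Each of 19356 genes kept its brightest probe set. Symbols were checked through the gene identifiers of RefSeq's GRCm38.p6 table, where 0 changed. The genotype comparison used limma 3.58.1 under R 4.3.3 (lmFit, eBayes without trend, two-sided, Benjamini-Hochberg over all genes, threshold 0.05), Sox11-/- minus wild type. The fit was tested on simulated data. Tead2 was compared with its paralogs by exact permutation over the 70 splits of the arrays (scipy 1.17.1). Motifs were searched as exact letters on both strands. Arrays carry no count of molecules, and their number limits the precision. The limma p-values set the difference between genotypes against the spread between replicates, with variances moderated over all genes. The permutation p-values place it among the 70 splits. The labels call the 4 replicates of each genotype independent.

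The members and lists were chosen with earlier results of these data known. The text names the members, the SoxC genes, Ccn2 and Ankrd1, the genes of the lists past the threshold, some of those with the lowest p-values, and the 5 genes nearest to Tead2. Other genes of the lists were picked after their values were seen. Some genes of the lists are not reported here. Alternatives were 2 further normalizations, 2 level filters, every probe set, the mean of probe sets, a trended and robust or absent moderation, array weights, the replicate block, Y-linked signal as a term, and leaving out each array. Figures were drawn with matplotlib 3.10.9.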

Additional observations from a re-analysis of the deposited data

Results flagged for a closer look

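In 3 of 26 groups of 4 values tested, 1 array lay far from the other arrays of its genotype (Dixon's ratio, the gap over the range, above its 95% critical value), where chance flags about 1 group in 20. For Tead2 in wild type ridges the ratio was 0.908, from replicate 1 at 11.96 below the others at 12.01 to 12.02, a gap that is small on the log2 scale. For Ccn1 in wild type ridges it was 0.877, from replicate 2 at 9.51 above the others at 9.22 to 9.26. For Tead2 minus Tead3 in wild type ridges it was 0.890, from replicate 4 at 2.33 above the others at 2.16 to 2.18.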

How the results depend on the processing

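The change of Tead2 stayed below 0 under all 11 alternatives on all arrays (-0.28 to -0.24) and without each array (-0.31 to -0.24). It passed the threshold with genes above the median level (-0.28, limma adjusted p = 0.0409), where fewer genes are tested, and with a trended and robust moderation (-0.28, limma adjusted p = 0.0258), where the cause was not tested. Ajuba, Amotl2, Lats2, Ccn1, Tead1 and Tead3 also stayed below 0 under every alternative, as did Tead4 under the 10 that tested it (its level is below the median). The members called lower were 2 under each of those settings (Tead2 and Ajuba), 1 with array weights (Ajuba) and 0 otherwise, and 0 were called higher. Tead2 minus Tead1, Tead3 and Tead4 kept their sign without each array (-0.29 to -0.17, -0.22 to -0.12 and -0.25 to -0.18). The genes called among all genes were 279, against 340 with genes above the 25th percentile, 349 with genes above the median level, 357 with a trended and robust moderation, 365 with array weights, 55 without moderation, 166 with the replicate block, 151 with the Y-linked covariate, and 107 to 243 without each array in turn. Signs turned for genes near 0: Yap1 (0.001 after quantile normalization, and -0.07 to 0.0082 without each array), Ccn2 (0.0035 after quantile normalization, and -0.12 to 0.05 without each array), Cdx2 (-0.02 after quantile normalization), Sox12 (-0.0018 with array weights, -0.02 to 0.06 without each array) and Wwtr1 (-0.04 to 0.10 without each array). Replicate numbers are shared by both genotypes without a stated pairing, and same-numbered arrays correlated at -0.165 to 0.09 in their deviations. With the replicate block the limma adjusted p was 0.133 for Tead2 and 0.0986 for Ajuba, and 0 members were called.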

Other observations

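Within the Sox11-/- ridges, replicates 3 and 4 had higher Tead1 (11.20 and 11.21) than replicates 1 and 2 (11.01 and 10.99), and higher Wwtr1 (8.89 and 8.92, against 8.70 and 8.60). The same arrays had lower Ajuba (8.95 and 8.99, against 9.24 and 9.16) and lower Ccn1 (8.98 and 8.84, against 9.12 and 9.20). Mean Y-linked signal was 9.88 and 9.84 on Sox11-/- replicates 3 and 4, and 5.34 and 5.37 on replicates 1 and 2. Among wild type ridges, replicate 1 carried it (10.06, against 5.31 to 5.58), and that array had the lowest Tead1 (11.05) and Wwtr1 (8.58) of its group. With that signal as a covariate the changes were -0.35 for Ajuba (limma adjusted p = 0.0868) and -0.24 for Ccn1 (limma adjusted p = 0.260).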
